A study of Rattus norvegicus with 12 samples.

Results

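The genes described here are the hnRNP and SR protein genes, taken as every gene symbol of the deposited count table that starts with Hnrnp or Srsf, and they number 31 of 33294 symbols. There are 19 Hnrnp and 12 Srsf symbols, and genes listed under a LOC symbol are outside this choice. Their transcripts were counted in 12 poly(A) RNA-seq libraries of PAC1 cells, a rat smooth muscle line from the pulmonary artery whose way of passaging keeps it either differentiated (PAC1-D) or proliferating (PAC1-P). The study asked how RBPMS, an RNA-binding protein of differentiated smooth muscle, and the muscleblind proteins MBNL1 and MBNL2 shape the transcriptome of the differentiated state.

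The 4 groups had 3 libraries each. D1 was PAC1-D with the control siRNA C2 and P was PAC1-P with a control siRNA, so that both reference groups were transfected as well. RBPMS KD1 was PAC1-D with an siRNA to Rbpms, and MBNL KD was PAC1-D with siRNAs to Mbnl1 and Mbnl2 together. Per the labels, 90 pmol of siRNA was used, a second treatment followed after 24 h and cells were assessed 48 h later, while the methods give longer intervals. All groups come from 1 cell line, P and D1 also differ in how they were split, and each target was depleted with 1 siRNA sequence. The sense strands are shown because they define the knockdown groups, and all values below rest on them.

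C2: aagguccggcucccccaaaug
RBPMS: ggcggcaaagccgagaaggcgaaca
MBNL1 THH2: cacggaauguaaauuugcauu
MBNL2: gaagaguaauugccugcuuuu

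hnRNP proteins are abundant nuclear proteins that coat nascent transcripts, and many of them act as splicing repressors, carry mRNA to the cytoplasm or bind elements that set mRNA stability. SR proteins have RNA recognition motifs and a domain rich in arginine and serine, are phosphorylated by the SRPK and CLK kinases, and mostly promote the use of exons whose enhancers they bind. Many genes of both families carry conserved exons whose inclusion or skipping sends the transcript to nonsense-mediated decay, and the counts used here sum all isoforms of a gene, productive or not.

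Of the 31 genes, 29 passed the filter on low counts in every comparison. Srsf8 had 0 counts in all 12 libraries, against a limit of 3 counts per library that covers counting error only, and Srsf12 had between 0 and 5 counts per library. Total counts per library lay between 80842635 and 90771289, the lowest in MBNL KD replicate 3. That library also differed most from its replicates, with a chi-square per gene of 12.8 against each after allowing for totals. Other pairs within a group had between 3.68 and 7.70. Whether both mates of a read pair were counted is not stated, but in every library more genes had exactly 2 counts (1298 to 1409) than 1 count (444 to 550), so 1 fragment can have given 2 counts, and the totals and the limit of 3 counts are in reads and not in independent fragments. Levels are given in CPM (counts divided by the library total, per 1000000) scaled with TMM factors over the 12 libraries, in the order of replicates 1, 2 and 3, and are compared between groups and not between genes, since transcript length was not used. GRCr8, a later rat assembly than the one used for counting, lists 106 pseudogenes or copies named after 16 of the members, and 8 members overlap another counted gene there, mostly on the opposite strand. The strand setting of the counting is not stated, so that reads of such pairs cannot be told apart. The coefficient of variation within a group had a median over the 29 genes between 1.93% and 2.21%. A gene was called higher or lower at a Benjamini-Hochberg adjusted p under 0.05 over all genes tested with edgeR's quasi-likelihood test, and the 3 comparisons with D1 share its libraries. The p-values measure the spread between these libraries, and in bulk RNA fewer cells of a kind and less RNA per cell cannot be told apart.

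The targeted transcripts were low where the labels place the siRNAs. Rbpms was 153, 156 and 141 CPM in D1 and 37.2, 37.1 and 38.3 CPM in RBPMS KD1 (log2 fold change -1.998, SE 0.035, adjusted p = 1.1e-25). In MBNL KD, Mbnl1 had a log2 fold change against D1 of -2.07 and Mbnl2 one of -1.75, with adjusted p = 1.7e-31 and adjusted p = 2.6e-30. Rbpms was also low in P, with 9.52, 9.57 and 9.37 CPM. Mbnl2 was 180, 178 and 182 CPM in D1, 92.3, 94.9 and 95.2 CPM in P and 198, 201 and 208 CPM in RBPMS KD1. Mbnl1 was 342, 345 and 352 CPM in D1, 427, 416 and 413 CPM in P and 367, 377 and 381 CPM in RBPMS KD1. The smooth muscle markers (8 genes, among them Acta2 and Myh11 of the contractile apparatus) summed to between 9803 and 10304 CPM in D1 and to between 211 and 224 CPM in P. Leukocyte markers summed to at most 1.65 CPM in any library. Endothelial markers summed to between 0.755 and 0.816 CPM in D1, 5.49 and 6.82 CPM in P, 1.82 and 1.86 CPM in RBPMS KD1 and 0.937 and 1.44 CPM in MBNL KD. Of the 6, 3 of 3 tested were higher in P, 2 of 2 in RBPMS KD1 and 0 of 2 in MBNL KD. Among all genes tested, 40.4%, 29.5% and 33.8% were called higher in these groups. Cdh5 was at 0 in every library outside P. Of the 6 epithelial markers, which summed to between 35.5 and 37.3 CPM in D1, 80.3 and 83.3 CPM in P, 38.8 and 41.4 CPM in RBPMS KD1 and 53.7 and 54.6 CPM in MBNL KD, nearly all counts were of the keratin Krt8, and the defining markers Epcam and Cdh1 were at 0 in D1 and RBPMS KD1 and at most 0.128 CPM in any library. The 1 epithelial marker that was tested was called higher in P, RBPMS KD1 and MBNL KD. The part of these lists in the levels of the hnRNP and SR protein genes was not tested.

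No hnRNP or SR protein gene changed by more than 2-fold against D1 in any of the 3 comparisons, but most passed the adjusted p. In P, 10 of the 29 genes were higher and 13 lower than in D1, among 40.4% of all genes tested called higher and 37.6% called lower. The P and D1 libraries did not overlap for 23 of the 29, against 79.1% of all genes. In RBPMS KD1, 2 were higher and 21 lower, where 29.5% of all genes tested were called higher and 29.5% lower. That is 23 of 29 in either direction against 59.1% of all genes, and 24 of the 29 did not overlap D1, against 63.4%. In MBNL KD, 9 were higher and 18 lower, where 33.8% of all genes were called higher and 33.7% lower. That is 27 of 29 in either direction against 67.5%, and 26 of the 29 did not overlap D1, against 70.3%. A change above 2-fold at that p was seen for 27.6% of all genes in P, 4.68% in RBPMS KD1 and 10.2% in MBNL KD. The share of members called lower, 72.4% in RBPMS KD1 and 62.1% in MBNL KD, thus lay above the background for that direction in both. No test of this excess was made, and the background was not matched for count level. The median log2 fold change of the 19 Hnrnp genes was -0.016 in P, -0.18 in RBPMS KD1 and -0.15 in MBNL KD, and that of the 10 tested Srsf genes was -0.11, -0.24 and -0.070. The medians of all genes tested were 0.020, 0.0043 and 0.0099.

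**Figure D1:**
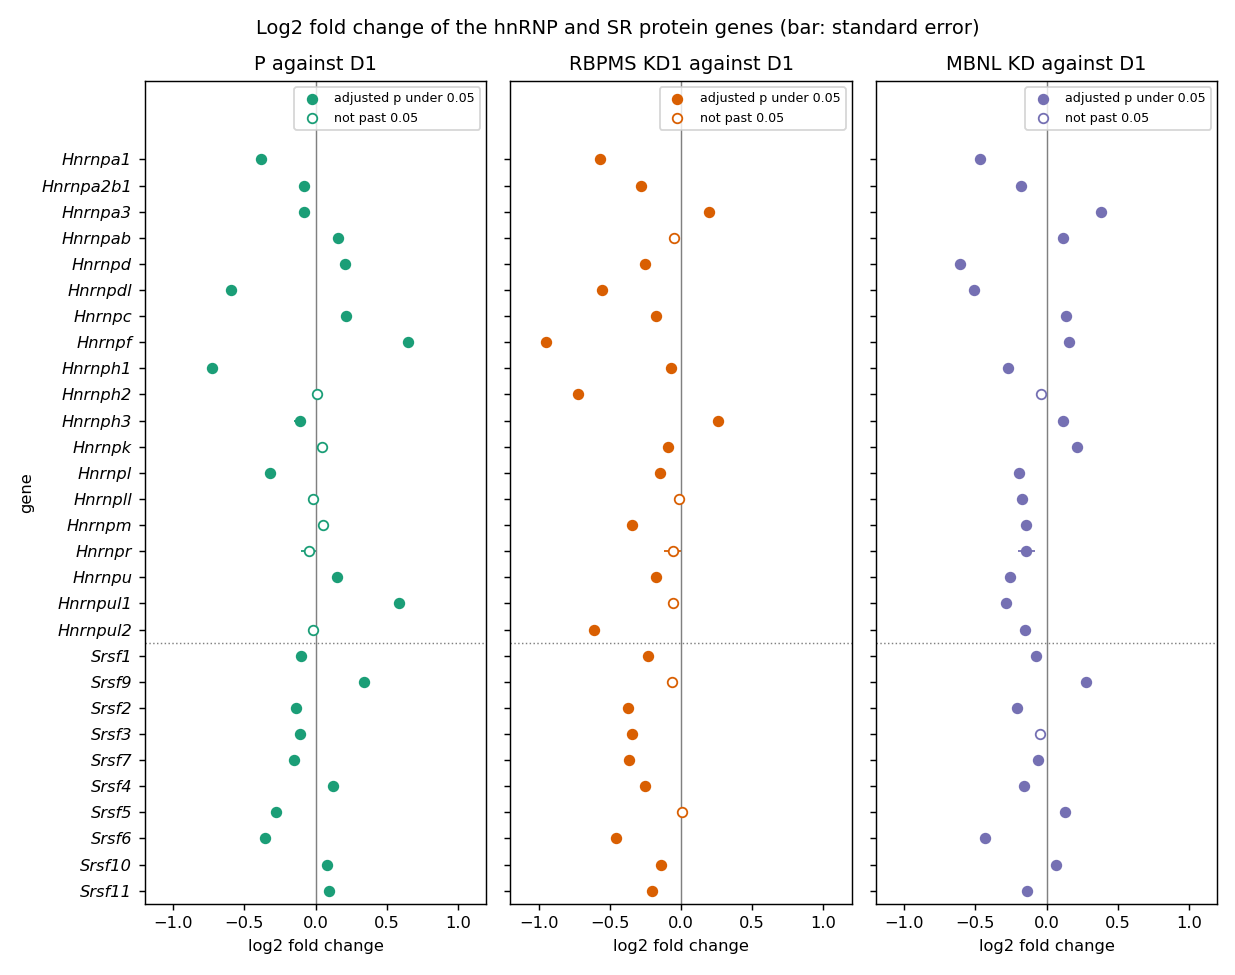
Log2 fold change of the 29 tested hnRNP and SR protein genes (rows, Hnrnp above the dotted line) in P, RBPMS KD1 and MBNL KD against D1, with bars for the standard error and filled points for an adjusted p under 0.05. In the RBPMS KD1 panel 21 filled points lie left of zero and 2 lie right of it, whereas the P panel has 13 and 10.

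Group means were lowest in RBPMS KD1 for 18 of the 29 genes, in P for 6, in MBNL KD for 5 and in D1 for 0. They were highest in D1 for 13 genes, in P for 12, in MBNL KD for 3 and in RBPMS KD1 for 1. Among the 15422 genes tested in every comparison, the mean was lowest in RBPMS KD1 for 20.6%, in P for 36.4%, in MBNL KD for 27.5% and in D1 for 15.6%, and highest in D1 for 16.7%, in P for 34.3%, in MBNL KD for 28% and in RBPMS KD1 for 21%, and no test of the difference was made. The range between the highest and the lowest group mean ran from 1.10-fold for Hnrnpr to 3.05-fold for Hnrnpf, and among the 29 genes only Hnrnpf passed 2-fold.

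The F/H type proteins bind runs of guanines. Hnrnpf was 399, 388 and 397 CPM in D1, 626, 613 and 629 CPM in P, 208, 200.3 and 204 CPM in RBPMS KD1 and 455, 437 and 430.0 CPM in MBNL KD. None of the 4 groups overlapped, with P highest and RBPMS KD1 lowest. Against D1 it was 1.57-fold higher in P (log2 fold change 0.65, SE 0.023, adjusted p = 1.2e-22) and 1.93-fold lower in RBPMS KD1 (log2 fold change -0.95, SE 0.025, adjusted p = 2.1e-22). In MBNL KD it was 1.12-fold higher (log2 fold change 0.16, SE 0.026, adjusted p = 3.4e-06).

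Hnrnph1, its paralog, had the largest fall of the family in P. It was 321, 319.5 and 319 CPM in D1 and 192, 191 and 198 CPM in P (log2 fold change -0.73, SE 0.024, adjusted p = 1.1e-23). It was 265, 259.6 and 267 CPM in MBNL KD (log2 fold change -0.27, SE 0.025, adjusted p = 4.1e-11) and 295, 305 and 313 CPM in RBPMS KD1, where the log2 fold change was -0.070 (adjusted p = 0.02) and the call was lost without D1 replicate 1 or RBPMS KD1 replicate 1. Every P library thus lay below every library of the other groups.

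Hnrnph2, an X-linked gene whose product is very similar to that of Hnrnph1, showed another order. It was 127, 124 and 125 CPM in D1 and 77.9, 74.6 and 75.5 CPM in RBPMS KD1, a fall of 1.65-fold (log2 fold change -0.73, SE 0.028, adjusted p = 1.1e-18). In P it was 124, 126 and 132 CPM and in MBNL KD 129, 115 and 123 CPM, and both groups overlapped D1 (adjusted p = 0.68 and adjusted p = 0.22). Hnrnph3, a shorter relative, was 44.2, 44.1 and 48.2 CPM in D1 and 54.1, 54.8 and 54.0 CPM in RBPMS KD1, and was one of the 2 genes called higher there (log2 fold change 0.26, SE 0.036, adjusted p = 5.1e-07). It was lower in P (log2 fold change -0.11, SE 0.037, adjusted p = 0.0069) and higher in MBNL KD (log2 fold change 0.11, SE 0.036, adjusted p = 0.006), calls that were lost when single libraries were left out.

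**Figure D2:**
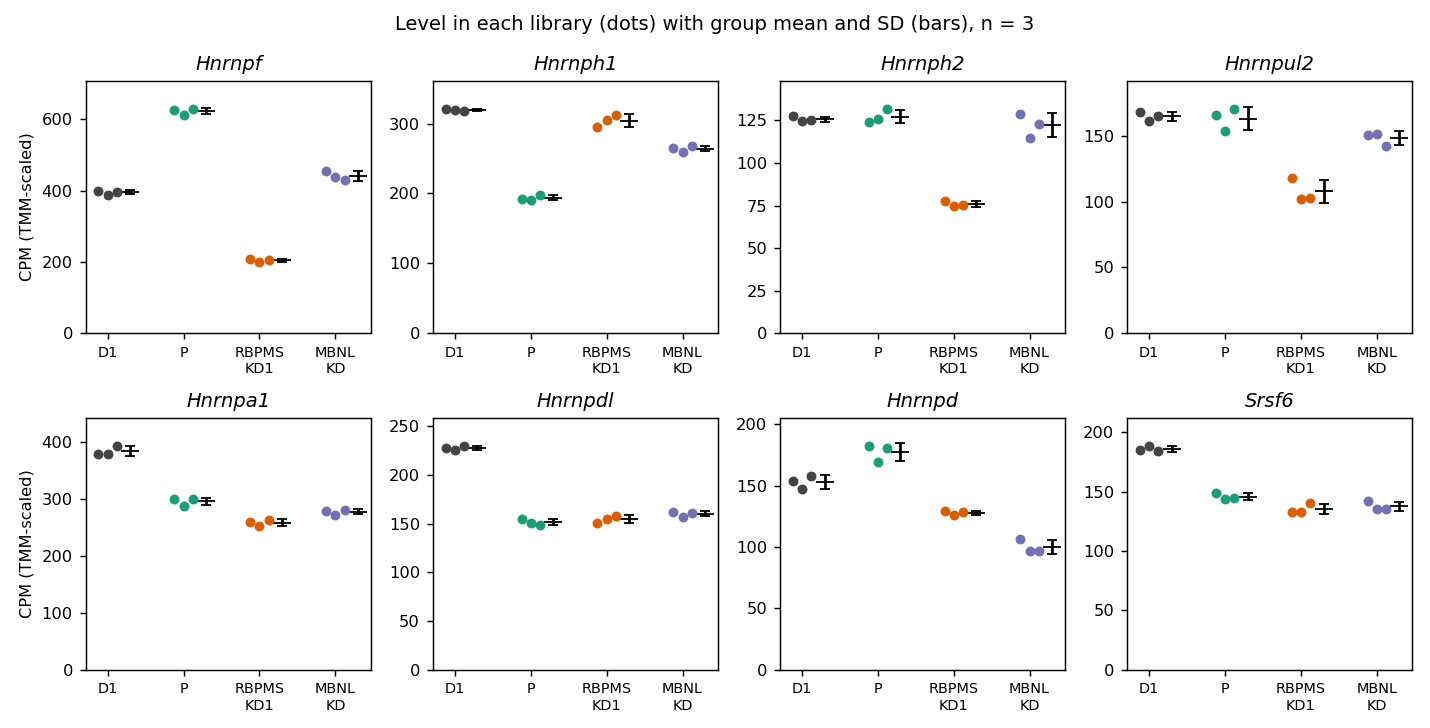
CPM of 8 members in each library (dots, replicates 1 to 3 from left to right) with the group mean and SD as bars, n = 3 per group. Hnrnpf and Hnrnph2 lie lowest in RBPMS KD1, Hnrnph1 lies lowest in P, Hnrnpd lies lowest in MBNL KD, and Hnrnpa1, Hnrnpdl and Srsf6 lie highest in D1.

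The upstream sequences of these genes were read from RefSeq promoters of GRCr8, of which 30 of the 31 members had one, over the 250 bases before the annotated start. The GC box GGGCGG, read on both strands, was found in 22 of 30, or 73.3%, against 57.6% of the 10413 promoters of genes with at least 10 counts in every library. The CCAAT motif was found in 18 of 30, or 60.0%, against 36.0%, and the E-box CACGTG in 5 of 30, or 16.7%, against 8.03%. The 30 members include Srsf12, with a GC box, and Srsf8, with a CCAAT motif, which do not reach that count limit. The ETS motif CCGGAAG was found in 6 of 30 members, or 20.0%, and in 15.2% of those promoters. The motifs TGACGTCA and AAGATGGC were found in 0 of the 30, and in 2.86% and 2.35% of those promoters. A CArG box, the element bound by serum response factor in smooth muscle genes, was found in 1 of 30, Hnrnpd, which holds 2, against 1.28%, and TATAAA in 5 of 30, or 16.7%, against 6.65%. Where 2 matches overlap, both were counted. These counts describe letters in a window and say nothing of what binds there.

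The promoters of 4 genes are shown, those of the 2 genes with the largest falls in RBPMS KD1 and of the neighbours Hnrnpdl and Hnrnpd, with every match to a searched motif on either strand in capitals, 5′ to 3′ on the gene's strand.

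Hnrnpf (GRCr8 chr4:152755418-152755667, plus strand): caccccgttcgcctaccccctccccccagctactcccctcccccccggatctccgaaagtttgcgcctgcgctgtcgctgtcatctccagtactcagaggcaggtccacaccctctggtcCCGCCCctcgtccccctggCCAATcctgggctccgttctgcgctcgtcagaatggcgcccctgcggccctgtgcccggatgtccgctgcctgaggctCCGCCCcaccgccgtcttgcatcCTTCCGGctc
Hnrnph2 (GRCr8 chrX:102073999-102074248, plus strand): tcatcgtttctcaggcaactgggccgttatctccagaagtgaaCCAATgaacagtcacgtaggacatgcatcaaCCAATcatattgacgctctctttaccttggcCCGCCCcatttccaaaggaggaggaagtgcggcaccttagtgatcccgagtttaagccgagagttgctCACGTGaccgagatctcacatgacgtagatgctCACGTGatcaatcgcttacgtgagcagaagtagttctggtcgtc
Hnrnpdl (GRCr8 chr14:9861466-9861715, plus strand): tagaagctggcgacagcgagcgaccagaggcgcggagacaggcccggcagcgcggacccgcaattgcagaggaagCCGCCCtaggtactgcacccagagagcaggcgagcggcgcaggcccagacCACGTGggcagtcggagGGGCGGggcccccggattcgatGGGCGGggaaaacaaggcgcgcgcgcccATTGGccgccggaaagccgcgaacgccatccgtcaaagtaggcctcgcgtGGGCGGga
Hnrnpd (GRCr8 chr14:9919507-9919756, plus strand): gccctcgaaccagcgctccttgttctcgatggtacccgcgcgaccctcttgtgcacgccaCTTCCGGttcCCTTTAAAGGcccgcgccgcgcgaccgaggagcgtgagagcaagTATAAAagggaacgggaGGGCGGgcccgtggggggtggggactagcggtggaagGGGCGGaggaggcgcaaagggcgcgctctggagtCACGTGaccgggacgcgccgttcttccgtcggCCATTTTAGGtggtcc

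Hnrnpf holds 2 GC boxes, 1 CCAAT motif and 1 ETS motif. Hnrnph2 holds 1 GC box, 2 CCAAT motifs and 2 E-boxes. The neighbours differ, in that Hnrnpdl holds 4 GC boxes and 1 CCAAT motif, and Hnrnpd holds 2 GC boxes, 1 ETS motif, 1 TATAAA and the 2 CArG boxes, while each has 1 E-box.

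The A/B type proteins are the core of the hnRNP particle and include the classical splicing repressor hnRNP A1. Hnrnpa1 was 379, 380.5 and 394 CPM in D1, 300.4, 289 and 299.7 CPM in P, 260.4, 253 and 264 CPM in RBPMS KD1 and 279, 273 and 282 CPM in MBNL KD. Each of the 3 groups lay below D1 without overlap. The fall was 1.30-fold in P (log2 fold change -0.38, SE 0.025, adjusted p = 1.6e-15), 1.48-fold in RBPMS KD1 (log2 fold change -0.57, SE 0.026, adjusted p = 3.7e-17) and 1.38-fold in MBNL KD (log2 fold change -0.47, SE 0.026, adjusted p = 5.2e-16). The gene table of GRCr8 lists 51 pseudogenes or copies named after Hnrnpa1, of which 0 were counted under a LOC symbol. Whether they share reads with Hnrnpa1 was not tested, so its level is uncertain to that extent.

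Hnrnpa2b1, whose product also sorts RNAs for transport, was 586, 557 and 572 CPM in D1 and 473, 459 and 476 CPM in RBPMS KD1 (log2 fold change -0.28, SE 0.025, adjusted p = 1.2e-10). Its log2 fold change was -0.18 in MBNL KD (adjusted p = 4.4e-07) and -0.082 in P, where quantile normalization turned it to 0.15. Hnrnpa3 went the other way in the knockdowns, with 154, 147 and 148 CPM in D1, 169, 169 and 177 CPM in RBPMS KD1 and 198, 186 and 201 CPM in MBNL KD. It rose 1.15-fold (log2 fold change 0.20, SE 0.027, adjusted p = 3.8e-07) and 1.30-fold (log2 fold change 0.38, SE 0.028, adjusted p = 3.5e-13), and had the largest rise of any member in MBNL KD.

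The AU-rich element binding proteins of the hnRNP D group influence mRNA decay. Hnrnpdl was 228, 226 and 229.9 CPM in D1, 155, 150.2 and 149 CPM in P, 151, 155 and 158 CPM in RBPMS KD1 and 162, 157 and 161 CPM in MBNL KD. All 9 libraries outside D1 lay below the D1 libraries. The log2 fold changes against D1 were -0.60 in P (adjusted p = 9.3e-21), -0.56 in RBPMS KD1 (adjusted p = 6e-17) and -0.51 in MBNL KD (adjusted p = 1.8e-17). RBPMS KD1 and MBNL KD overlapped in this gene (direct comparison log2 fold change -0.047, SE 0.025, adjusted p = 0.1).

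Hnrnpd, also called AUF1, lies next to Hnrnpdl with 0 protein-coding genes between them in GRCr8, and its levels took another order. It was 154, 147 and 158 CPM in D1, 183, 169 and 181 CPM in P, 129, 126 and 129 CPM in RBPMS KD1 and 107, 96.8 and 97.0 CPM in MBNL KD. The 4 groups did not overlap, with P above D1 (log2 fold change 0.21, SE 0.029, adjusted p = 1e-07) and both knockdowns below it. It had the largest fall of any member in MBNL KD (log2 fold change -0.61, SE 0.031, adjusted p = 6e-17), and was lower in RBPMS KD1 as well (log2 fold change -0.26, SE 0.028, adjusted p = 7.5e-09). Hnrnpab, the remaining member of the group, was 70.3, 65.5 and 68.0 CPM in D1 and 78.6, 74.0 and 75.1 CPM in P (log2 fold change 0.15, SE 0.032, adjusted p = 5.2e-05). It was 75.4, 72.6 and 73.1 CPM in MBNL KD (log2 fold change 0.12, SE 0.030, adjusted p = 0.00088) and did not pass the test in RBPMS KD1 (adjusted p = 0.16).

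Hnrnpc encodes a protein that binds uridine tracts and keeps cryptic exons out of mRNA. It was 221, 211 and 222 CPM in D1, 257, 244 and 259.6 CPM in P, 190.5, 193 and 195 CPM in RBPMS KD1 and 241, 235 and 241 CPM in MBNL KD. It was higher in P (log2 fold change 0.21, SE 0.027, adjusted p = 1.3e-08) and in MBNL KD (log2 fold change 0.13, SE 0.026, adjusted p = 3.9e-05) and lower in RBPMS KD1 (log2 fold change -0.18, SE 0.026, adjusted p = 1e-06). Hnrnpk, whose product binds cytosine-rich RNA and DNA through KH domains, was 259.5, 264 and 271 CPM in D1 and 304, 303 and 312 CPM in MBNL KD (log2 fold change 0.21, SE 0.026, adjusted p = 2.1e-08). Its log2 fold change was -0.090 in RBPMS KD1 (adjusted p = 0.004), a call lost under quantile normalization (log2 fold change -0.030, adjusted p = 0.30), and 0.045 in P (adjusted p = 0.096).

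A locus counted as LOC100363335, which GRCr8 names as a pseudogene of Hnrnpk, had up to 4678 counts in a library, and its log2 fold changes were 0.013, -0.11 and 0.16 in P, RBPMS KD1 and MBNL KD. Whether its reads belong to Hnrnpk was not tested.

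Hnrnpl and Hnrnpll encode paralogs that bind CA repeats, and Hnrnpll is known from the switch of CD45 splicing in lymphocytes. Hnrnpl was 369.9, 367 and 364 CPM in D1 and 292, 294 and 299 CPM in P (log2 fold change -0.32, SE 0.023, adjusted p = 3.9e-14). The falls were smaller in RBPMS KD1 (log2 fold change -0.15, SE 0.024, adjusted p = 4.4e-06) and MBNL KD (log2 fold change -0.19, SE 0.025, adjusted p = 6.7e-08). A gene model counted as LOC103689966 overlaps Hnrnpl on the same strand over 12712 bases in GRCr8 and had between 410 and 1346 counts, so the division of reads between them is uncertain. Hnrnpll was 89.2, 87.1 and 92.5 CPM in D1 and 79.7, 80.04 and 78.8 CPM in MBNL KD (log2 fold change -0.17, SE 0.027, adjusted p = 2.1e-06), and its log2 fold change was -0.016 in P and -0.018 in RBPMS KD1, with adjusted p = 0.64 and adjusted p = 0.64.

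Hnrnpm and Hnrnpr complete the group of proteins with several RNA recognition motifs. Hnrnpm was 270.3, 269 and 278 CPM in D1 and 224, 207 and 210.4 CPM in RBPMS KD1 (log2 fold change -0.35, SE 0.028, adjusted p = 1.5e-11). Its log2 fold change was -0.15 in MBNL KD (adjusted p = 6.9e-06) and 0.050 in P (adjusted p = 0.071). Hnrnpr was between 15.0 and 18.2 CPM in all libraries and had the lowest counts of the 29 genes. It passed the test only in MBNL KD (log2 fold change -0.14, SE 0.059, adjusted p = 0.034), where its libraries overlapped D1 and the call was lost when any 1 of 4 libraries was left out.

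The U type proteins are large, bind RNA through RGG repeats, and in the case of hnRNP U attach to chromatin. Hnrnpu was 649, 633 and 650.4 CPM in D1, 713, 694 and 748 CPM in P, 576, 553 and 577 CPM in RBPMS KD1 and 553, 533 and 531 CPM in MBNL KD. P lay above D1 (log2 fold change 0.15, SE 0.025, adjusted p = 2.4e-06), and both knockdowns lay below it, with log2 fold changes of -0.18 (adjusted p = 4.5e-07) and -0.26 (adjusted p = 2.1e-10).

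Hnrnpul1 was 258, 262 and 264 CPM in D1 and 393, 396 and 389 CPM in P, a rise of 1.50-fold (log2 fold change 0.58, SE 0.024, adjusted p = 4e-21). In MBNL KD it was 222, 213 and 208 CPM (log2 fold change -0.28, SE 0.026, adjusted p = 9.1e-11), and in RBPMS KD1 it did not pass the test (adjusted p = 0.066). Hnrnpul2 was 168, 161 and 166 CPM in D1 and 118, 103 and 103 CPM in RBPMS KD1 (log2 fold change -0.61, SE 0.037, adjusted p = 2e-14). In P it was 166, 154 and 171 CPM and overlapped D1 (adjusted p = 0.55). In MBNL KD Hnrnpul2 was lower as well (log2 fold change -0.15, SE 0.026, adjusted p = 5.9e-06). That call was lost with limma on the authors' normalised values (adjusted p = 0.085).

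Among the SR proteins, Srsf1 encodes the founding member, a general splicing activator, and Srsf9 its closest paralog. Srsf1 was 319.5, 322 and 331 CPM in D1 and 276, 272 and 278 CPM in RBPMS KD1 (log2 fold change -0.23, SE 0.025, adjusted p = 3.1e-09). Its log2 fold change was -0.10 in P and -0.077 in MBNL KD, and both were above zero under quantile normalization. Vezf1 overlaps Srsf1 on the same strand over 884 bases in GRCr8. It had between 4517 and 5372 counts, so the division of reads between them is uncertain. Srsf9 was 68.7, 69.6 and 69.2 CPM in D1, 91.9, 84.1 and 88.2 CPM in P, 69.5, 66.0 and 62.5 CPM in RBPMS KD1 and 86.5, 84.3 and 79.7 CPM in MBNL KD. It had the largest rise of the Srsf genes in P (log2 fold change 0.34, SE 0.031, adjusted p = 5.6e-12) and in MBNL KD (log2 fold change 0.27, SE 0.029, adjusted p = 1.8e-09), and overlapped D1 in RBPMS KD1 (adjusted p = 0.096).

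Srsf2 (SC35) was 159, 157 and 163 CPM in D1 and 124, 123 and 123 CPM in RBPMS KD1 (log2 fold change -0.38, SE 0.026, adjusted p = 4.9e-13), and its log2 fold change was -0.14 in P and -0.21 in MBNL KD. Srsf3 and Srsf7 encode small SR proteins that link splicing to polyadenylation and mRNA export. Srsf3 was 227, 229 and 241 CPM in D1 and 181, 181 and 185 CPM in RBPMS KD1 (log2 fold change -0.35, SE 0.027, adjusted p = 4.2e-12), and Srsf7 was 140.1, 139.7 and 136 CPM and 105, 109 and 108 CPM (log2 fold change -0.37, SE 0.027, adjusted p = 1.7e-12). In MBNL KD the log2 fold changes were -0.048 for Srsf3, which did not pass the test (adjusted p = 0.11), and -0.063 for Srsf7, which did (adjusted p = 0.016) but turned above zero under quantile normalization. In P they were -0.11 and -0.16, with adjusted p = 0.00028 and adjusted p = 3.4e-06, and the call of Srsf3 was lost under quantile normalization (log2 fold change -0.015, adjusted p = 0.60).

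Srsf4, Srsf5 and Srsf6 encode a subgroup of closely related larger SR proteins. Srsf6 was 185, 189 and 184 CPM in D1, 149, 144 and 144 CPM in P, 132, 133 and 140.1 CPM in RBPMS KD1 and 142, 136 and 135 CPM in MBNL KD. Every library outside D1 lay below the D1 libraries, and it had the largest fall of the Srsf genes in each comparison, in P (log2 fold change -0.36, SE 0.025, adjusted p = 1.6e-14), in RBPMS KD1 (log2 fold change -0.46, SE 0.027, adjusted p = 1.6e-14) and in MBNL KD (log2 fold change -0.43, SE 0.024, adjusted p = 8.6e-16). Srsf5 was 239, 246 and 247 CPM in D1, 211, 201 and 193 CPM in P (log2 fold change -0.28, SE 0.028, adjusted p = 6.9e-11) and 264, 261 and 275 CPM in MBNL KD (log2 fold change 0.13, SE 0.026, adjusted p = 6.2e-05). In RBPMS KD1 Srsf5 did not pass the test (adjusted p = 0.9). Srsf4 was 76.4, 76.2 and 73.8 CPM in D1 and 82.6, 80.9 and 84.1 CPM in P (log2 fold change 0.12, SE 0.029, adjusted p = 0.00024), and its log2 fold changes were -0.25 in RBPMS KD1 and -0.16 in MBNL KD.

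Srsf10, whose product becomes a splicing repressor when dephosphorylated, and Srsf11 had small changes, and the calls of Srsf10 in P and MBNL KD were lost when single libraries were left out. Srsf10 had log2 fold changes of 0.082 in P, -0.14 in RBPMS KD1 and 0.065 in MBNL KD, with adjusted p = 0.0083, adjusted p = 0.00016 and adjusted p = 0.026. Srsf11 had log2 fold changes of 0.092, -0.21 and -0.13, with adjusted p = 0.0027, adjusted p = 2.1e-07 and adjusted p = 4.1e-05. The call of Srsf11 in MBNL KD was lost under quantile normalization (log2 fold change -0.056, adjusted p = 0.067), and that of Srsf10 in RBPMS KD1 with limma on the authors' normalised values (log2 fold change -0.085, adjusted p = 0.054).

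The knockdowns were also compared with each other, which asks whether depletion of RBPMS and of MBNL left the genes at different levels. In RBPMS KD1, 6 genes were higher and 19 lower than in MBNL KD, where 34.5% of all genes tested were called higher and 35.1% lower, and 1 member passed 2-fold as well, against 11.9% of all genes. The libraries of the knockdowns did not overlap for 26 of the 29 genes, against 71.8% of all genes. The member past 2-fold was Hnrnpf (log2 fold change -1.11, SE 0.028, adjusted p = 1.1e-24). Hnrnph2 (log2 fold change -0.68, SE 0.032, adjusted p = 9.2e-18) and Hnrnpul2 (log2 fold change -0.46, SE 0.036, adjusted p = 1.4e-12) followed in the same direction. Of the Srsf genes, 9 of 10 were lower in RBPMS KD1 and 0 higher (8 and 0 by DESeq2, 9 and 0 by edgeR at an unadjusted p under 0.05), the largest difference being that of Srsf9 (log2 fold change -0.33, SE 0.034, adjusted p = 6.1e-10). The 6 genes that were higher in RBPMS KD1 than in MBNL KD were Hnrnp genes, led by Hnrnpd (log2 fold change 0.36, SE 0.030, adjusted p = 6.8e-12), Hnrnpul1 (log2 fold change 0.23, SE 0.028, adjusted p = 1.2e-08) and Hnrnph1 (log2 fold change 0.21, SE 0.028, adjusted p = 7.9e-08). Hnrnpdl and Srsf6 did not pass this test, with differences of -0.047 (SE 0.025) and -0.022 (SE 0.027).

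Ratios between paralogs within a library do not change when a library is scaled by 1 factor. Counts of 10 pairs were set against each other, and in 23 of the 30 comparisons of a group with D1 the libraries did not overlap. Single genes did not overlap for 79.1% of all genes in P, 63.4% in RBPMS KD1 and 70.3% in MBNL KD, so nothing about the pairs is read from that count. With 3 libraries against 3 the two-sided exact permutation test cannot go below p = 0.1, and the lowest adjusted p over the 30 tests was 0.13. The ratio of Hnrnpf to Hnrnph1 on the log2 scale was 0.30 ± 0.020 in D1, 1.69 ± 0.016 in P, -0.58 ± 0.061 in RBPMS KD1 and 0.74 ± 0.047 in MBNL KD (mean ± SD, n = 3), a difference from D1 of 1.38, -0.88 and 0.43. The ratio of Hnrnph1 to Hnrnph2 was 1.35 ± 0.014 in D1, 0.61 ± 0.022 in P, 2.00 ± 0.071 in RBPMS KD1 and 1.11 ± 0.068 in MBNL KD, so that P and MBNL KD lay below D1 and RBPMS KD1 above it.

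Hnrnpd to Hnrnpdl went from -0.58 ± 0.042 in D1 to 0.23 ± 0.053 in P, with -0.27 ± 0.042 in RBPMS KD1 and -0.68 ± 0.067 in MBNL KD, which overlapped D1. Hnrnpul1 to Hnrnpul2 was 0.66 ± 0.042 in D1, 1.27 ± 0.092 in P, 1.22 ± 0.15 in RBPMS KD1 and 0.53 ± 0.037 in MBNL KD, which lay below D1 without overlap. Hnrnpa2b1 to Hnrnpa3 differed from D1 by -0.0032 in P, where the libraries overlapped, but by -0.48 in RBPMS KD1 and -0.56 in MBNL KD. Srsf4 to Srsf6 was higher than D1 by 0.48 in P, 0.20 in RBPMS KD1 and 0.27 in MBNL KD, and Srsf1 to Srsf9 was lower by 0.44, 0.17 and 0.35. Srsf3 to Srsf7 overlapped D1 in all 3 groups, with differences of 0.042, 0.020 and 0.016. Counts are not divided by length here, so that a ratio carries its group differences only.

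**Figure D3:**
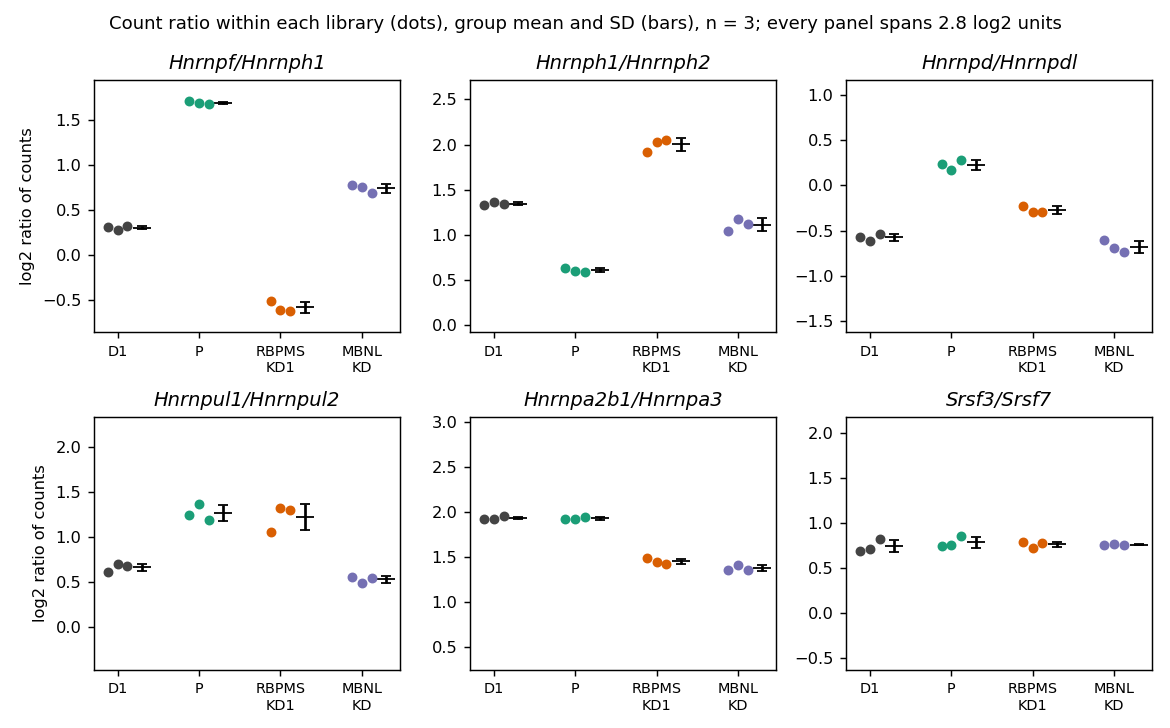
Log2 ratio of the counts of 6 pairs within each library (dots) with the group mean and SD as bars, n = 3 per group, every panel spanning the same range. Hnrnpf/Hnrnph1 separates all 4 groups, from -0.58 in RBPMS KD1 to 1.69 in P, while Srsf3/Srsf7 overlaps in all of them.

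Taken as a sum, the 19 Hnrnp symbols held 0.455% ± 0.0079 of all counts in D1, 0.522% ± 0.0080 in P, 0.379% ± 0.0062 in RBPMS KD1 and 0.429% ± 0.0050 in MBNL KD (SD, n = 3). The 12 Srsf symbols held 0.162% ± 0.0016 in D1, 0.170% ± 0.0022 in P, 0.138% ± 0.0021 in RBPMS KD1 and 0.160% ± 0.0013 in MBNL KD. Relative to D1, the Hnrnp share was 83.4% and the Srsf share 85.5% in RBPMS KD1. In MBNL KD the Hnrnp share was 94.2% of D1. The libraries did not overlap D1 in these or in P, where the two-sided exact permutation test gave p = 0.1, its smallest value, and an adjusted p of 0.12 over 6 tests. The Srsf share in MBNL KD overlapped D1 (exact permutation p = 0.4).

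The shares depended on the denominator. Against D1, the Hnrnp share in P was 115% of all counts but 102% of TMM-scaled counts, and the Srsf share was 105% and 93.8%. The Srsf sum in P thus lay on either side of D1 depending on the denominator, while in RBPMS KD1 it was 84.4% of D1 with TMM scaling. With that scaling the Hnrnp share of P overlapped D1, between 0.476% and 0.493% against 0.467% and 0.479%, and the Srsf share of MBNL KD did not overlap it, between 0.159% and 0.162% against 0.166% and 0.170%.

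**Figure D4:**
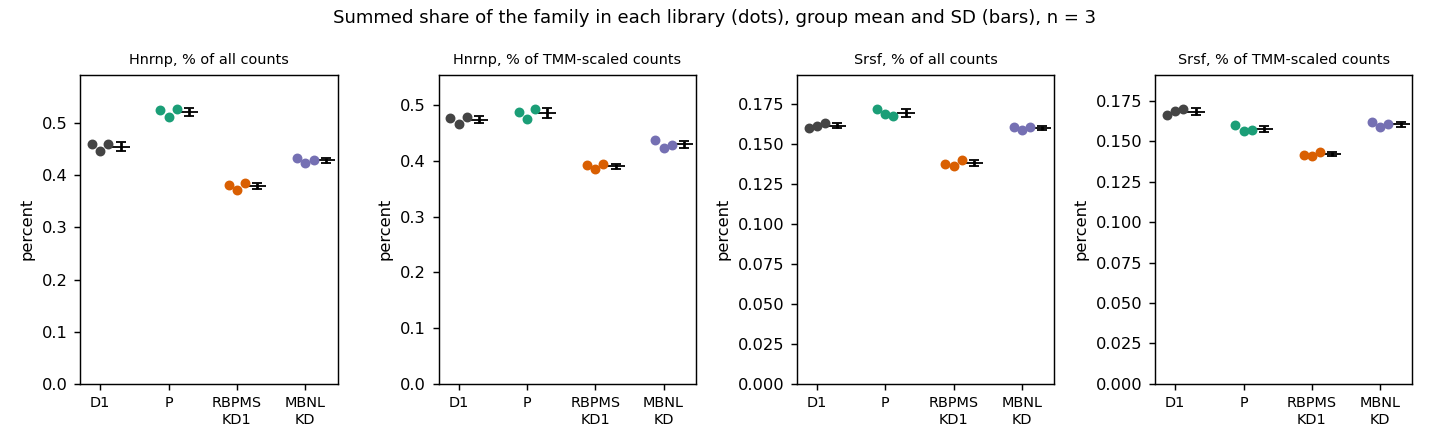
Summed share of the Hnrnp symbols (left pair of panels) and the Srsf symbols (right pair) in percent of all counts or of TMM-scaled counts, with dots for libraries and bars for the group mean and SD, n = 3. RBPMS KD1 is lowest in all panels, and the Srsf share in P lies above D1 in all counts and below it in TMM-scaled counts.

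Single genes in P also moved with the scaling. Under quantile normalization of the 6 libraries compared, 14 members were higher and 9 lower in P, where 37.1% of all genes were higher and 43.2% lower. With TMM these were 10 and 13 members, against 40.4% and 37.6% of all genes. A member's log2 fold change shifted by between -0.028 and 0.26, while the median of all genes moved by -0.089. Hnrnpa2b1 turned from -0.082 to 0.15 and Srsf1 from -0.10 to 0.090. The members with the larger changes kept their direction, among them Hnrnpf, Hnrnpul1, Srsf9, Hnrnph1, Hnrnpdl, Hnrnpa1, Hnrnpl, Srsf6 and Srsf5.

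**Figure D5:**
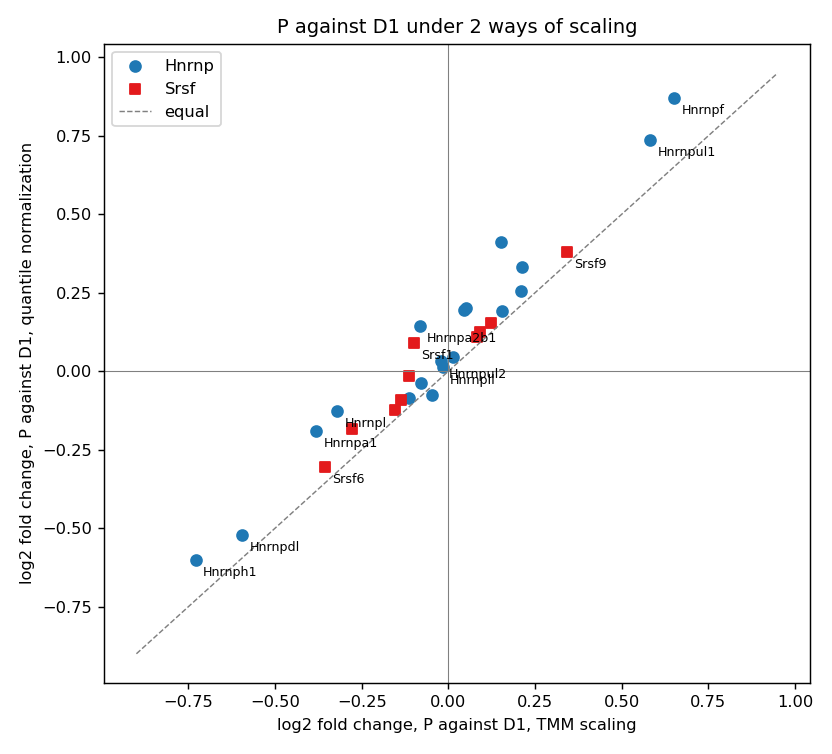
Log2 fold change of the 29 tested members in P against D1 with TMM scaling (horizontal) and with quantile normalization (vertical), circles for Hnrnp, squares for Srsf and a dashed line for equal values. Most points lie above the line, and Hnrnpa2b1 and Srsf1 are the called genes that cross from below zero to above it.

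Of the called members, 17 of 23 in P, 20 of 23 in RBPMS KD1, 20 of 27 in MBNL KD and 22 of 25 in the direct comparison kept their direction and stayed past the adjusted p in all of 15 further fits that changed scaling, filter, test or model or left out a library.

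Genes that act with the 2 families were taken from lists, whose counts stand against the shares of all genes tested that were called higher and lower, 40.4% and 37.6% in P, 29.5% and 29.5% in RBPMS KD1 and 33.8% and 33.7% in MBNL KD. No excess over these shares was tested. Of 17 tested genes for hnRNP-type proteins under other symbols, 5 were higher and 10 lower in P, 3 and 10 in RBPMS KD1, and 1 and 12 in MBNL KD. Ptbp3, a paralog of the polypyrimidine tract binding protein, was 169, 173 and 166 CPM in D1, 328, 336 and 348 CPM in P and 73.2, 69.7 and 73.3 CPM in RBPMS KD1. It was 1.98-fold higher in P (log2 fold change 0.99, SE 0.026, adjusted p = 1.8e-26) and 2.35-fold lower in RBPMS KD1 (log2 fold change -1.23, SE 0.029, adjusted p = 1.4e-23), while MBNL KD overlapped D1 (log2 fold change -0.023, adjusted p = 0.41). Taf15, an RNA-binding protein that also associates with the general transcription factor TFIID, was 72.7, 63.9 and 68.5 CPM in D1 and 34.8, 31.6 and 30.8 CPM in MBNL KD (log2 fold change -1.07, SE 0.043, adjusted p = 1.8e-19). Pcbp4, a KH domain protein related to Hnrnpk, was 136, 135 and 136 CPM in D1 and 61.1, 64.3 and 63.7 CPM in P (log2 fold change -1.11, SE 0.028, adjusted p = 4e-27).

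Of 20 SR-related splicing coactivators, 5 were higher and 9 lower in P, 0 and 12 in RBPMS KD1, and 1 and 13 in MBNL KD, and 0 passed 2-fold as well. The share lower in P, 9 of 20, was near that of all genes (37.6%), while 12 and 13 of 20 stand against 29.5% and 33.7% in the knockdowns. Tra2a, a relative of the SR proteins that binds exonic enhancers, had a log2 fold change of -0.42 in RBPMS KD1 (adjusted p = 3.1e-13), and its paralog Tra2b one of -0.16 (adjusted p = 4.7e-06). The SR protein kinases and import receptors had 1 of 9 tested higher and 4 lower in P, 0 of 10 and 8 in RBPMS KD1, and 1 of 9 and 5 in MBNL KD, where 37.6%, 29.5% and 33.7% of all genes were lower. In RBPMS KD1 these included the kinases Srpk2 (log2 fold change -0.73, SE 0.031, adjusted p = 1.2e-17) and Clk3 (log2 fold change -0.61, SE 0.036, adjusted p = 1.2e-14) and the SR import receptor Tnpo3 (log2 fold change -0.59, SE 0.027, adjusted p = 5.5e-17). For the higher counts of 0 in RBPMS KD1, edgeR at an unadjusted p under 0.05 gave 1 coactivator and 0 kinases or import receptors, and DESeq2 gave 0 of either.

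Of 7 genes for hnRNP import and arginine methylation, 1 was higher and 5 lower in P, 2 and 3 in RBPMS KD1, and 3 and 3 in MBNL KD, where the import receptor Tnpo2 had the lowest value (log2 fold change -0.84, SE 0.023, adjusted p = 2.8e-23). Of 10 nonsense-mediated decay factors, 1 was higher and 6 lower in P, 3 and 4 in RBPMS KD1, and 4 and 4 in MBNL KD, counts in the knockdowns that are near the shares of all genes. Upf3a had a log2 fold change of -0.81 in P (adjusted p = 1.6e-17), and of 0.33 and 0.41 in the knockdowns.

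Levels of other listed genes also differed between the groups. Of 12 proliferation markers, 9 were higher and 0 lower in P, 0 and 11 in RBPMS KD1, and 0 and 12 in MBNL KD, where 40.4%, 29.5% and 33.8% of all genes were higher and 37.6%, 29.5% and 33.7% lower, and their summed level ranged from 1176 to 1204 CPM in D1, 1432 to 1476 CPM in P, 964 to 995 CPM in RBPMS KD1 and 774 to 778 CPM in MBNL KD. The counts of 0 were also 0 by edgeR at an unadjusted p under 0.05 and by DESeq2. These are RNA levels. In the study's EdU assay of DNA synthesis, depletion of RBPMS in PAC1-D cells raised proliferation, and that of MBNL1 and MBNL2 had no effect. Interferon-stimulated genes summed to between 62.4 and 71.9 CPM in D1, 262 and 270 CPM in P, 108 and 140 CPM in RBPMS KD1 and 60.7 and 101 CPM in MBNL KD, which overlapped D1. Of 11 tested, 10 were higher and 1 lower in P, 8 and 1 in RBPMS KD1, and 5 and 3 in MBNL KD, against the same shares of all genes. Smooth muscle markers summed to between 4886 and 5060 CPM in RBPMS KD1 and 7828 and 7944 CPM in MBNL KD. The part of these genes in the levels of the hnRNP and SR protein genes was not tested.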

How the data were processed

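Gene-level counts of 12 libraries were analysed. Per the labels and methods, the authors subsampled reads with seqtk, aligned them with STAR 2.7.11b to mRatBN7.2 and made the deposited raw counts with featureCounts from RefSeq genes, the strand setting and the counting of mates being not given in the sources used here. The authors' deposited normalised table holds a signal per gene, quantile-normalised counts raised by 35, for 30 of the 31 members, and was used for alternatives only. All 12 sample columns of each table were used.

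The 6 libraries of each comparison were fitted by edgeR 4.0.16 under R 4.3.3 (filterByExpr, TMM, quasi-likelihood F test, Benjamini-Hochberg adjustment over all genes). The SE was obtained by dividing a log2 fold change by the root of its F statistic. DESeq2 1.42.0, limma 3.58.1, other scalings and filters, counts thinned to 25%, a replicate block and leaving out each library were alternatives. Shares and ratios were tested with two-sided exact permutation tests (scipy 1.17.1). The edgeR, DESeq2 and limma fits were also run on counts simulated for P and D1, with as many rises as falls. The simulation covered neither a shift in scaling between groups nor the tests of shares and ratios. The members, the lists of related genes and the pairs were chosen with earlier results of these data known. Every member could be named, and from the other lists genes past 2-fold. The other listed genes that are named (Tra2a, Tra2b, Srpk2, Clk3, Tnpo3, Tnpo2, Upf3a), the motifs and the 4 promoters were chosen after their values were seen. Sequences are from RefSeq GRCr8 and the study's siRNA list. No genome of the counting build was used, so positions in it are not given. The correlation of same-numbered libraries' deviations lay between -0.019 and 0.040, so the numbers were not taken as pairs.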

Additional observations from a re-analysis of the deposited data

Results flagged for a closer look

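A difference between the knockdowns, in which one was called above D1 and the other below it and the direct comparison was called too, each at edgeR's adjusted p under 0.05, was found for 4 members, all lower in RBPMS KD1 and higher in MBNL KD. That is 4 of 29, against 17.9% of the 15422 genes tested in every comparison, of which 8.2% were lower in RBPMS KD1 and higher in MBNL KD, and no test of the difference was made. The log2 fold change of RBPMS KD1 against MBNL KD was -1.11 for Hnrnpf, -0.31 for Hnrnpc, -0.30 for Hnrnpk and -0.20 for Srsf10. The call of Srsf10 against D1 in MBNL KD, with a log2 fold change of 0.065, was lost without D1 replicate 1 (adjusted p = 0.36), MBNL KD replicate 1 (adjusted p = 0.13) or MBNL KD replicate 3 (adjusted p = 0.060). The calls in RBPMS KD1 against D1 were lost for Hnrnpk under quantile normalization and with limma on the authors' normalised values (log2 fold changes -0.030 and -0.027) and for Srsf10 with the latter (-0.085).

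A gene outside the symbols chosen also differed from the control. LOC681410, which GRCr8 names Hnrnpa0, an A/B type hnRNP gene, was higher in P than in D1 with a log2 fold change of 0.30 (SE 0.043, edgeR adjusted p = 1.6e-07). It was 144, 139 and 138 CPM in D1 and 172, 154 and 194 CPM in P, whose libraries varied more than those of D1. In MBNL KD its log2 fold change was -0.26 (adjusted p = 6.9e-09).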

How the results depend on the processing

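In all fits 0 members passed 2-fold and the adjusted p together against D1, and 1 did in the direct comparison. Over the alternatives the members called higher and lower ranged from 9 to 14 and from 8 to 14 in P, stayed at 2 and ranged from 18 to 22 in RBPMS KD1, from 7 to 9 and 13 to 19 in MBNL KD, and from 6 to 7 and 16 to 20 in the direct comparison. In P, 8 members were lower with limma on the authors' normalised values and 9 with quantile normalization, against 13. With TMM-scaled denominators the Hnrnp share was 102% of D1 in P and 90.6% in MBNL KD, and the Srsf share 93.8% in P and 95.4% in MBNL KD. From the authors' normalised values the Hnrnp share was 86.2% in RBPMS KD1 and 96.6% in MBNL KD, and the Srsf share 98.7% in P, 87.7% in RBPMS KD1 and 101% in MBNL KD. Under quantile normalization, and with limma on the authors' values, these log2 fold changes changed sign: in P Hnrnpa2b1 (0.15 and 0.15), Hnrnpll (0.012 and 0.010), Hnrnpul2 (0.031 and 0.032), Srsf1 (0.090 and 0.089) and the Srsf median (0.038 and 0.036), in RBPMS KD1 Hnrnpll (0.0029 and 0.0030), and in MBNL KD Hnrnph2 (0.042 and 0.041), Srsf1 (0.028 and 0.026), Srsf3 (0.014 and 0.012), Srsf7 (0.010 and 0.0099) and the Srsf median (0.012 and 0.011). So did Hnrnpll (0.0045) and Hnrnpul2 (0.000802) in P with at least 10 counts in every library, and Hnrnph2 in P (-0.0024) with thinned counts. Leaving out a library changed the sign only of members not called, with log2 fold changes from -0.011 to 0.031 (Hnrnph2 in P), -0.040 to 0.020 (Hnrnpll in P), -0.050 to 0.024 (Hnrnpul2 in P), -0.040 to 0.0049 (Hnrnpll in RBPMS KD1), -0.014 to 0.016 (Srsf5 in RBPMS KD1), -0.081 to 0.0015 (Hnrnph2 in MBNL KD) and -0.034 to 0.011 (Srsf6 in the direct comparison). The cause was not tested.

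Calls against D1 that 1 library decided were those of Hnrnph3 in P without D1 replicate 3 (adjusted p = 0.085) and in MBNL KD without D1 replicate 1 or 2 (adjusted p = 0.069 and 0.057), Srsf10 in P without D1 replicate 1 or P replicate 1 (adjusted p = 0.16 and 0.058), Hnrnph1 in RBPMS KD1 without D1 replicate 1 or RBPMS KD1 replicate 1 (adjusted p = 0.051 and 0.12), Srsf10 in MBNL KD without D1 replicate 1 or MBNL KD replicate 1 or 3 (adjusted p = 0.36, 0.13 and 0.060), Srsf7 in MBNL KD without MBNL KD replicate 2 (adjusted p = 0.073) and Hnrnpr in MBNL KD without D1 replicate 1 or 3 or MBNL KD replicate 1 or 2 (adjusted p = 0.19, 0.13, 0.096 and 0.096), all by edgeR. Calls against D1 lost with no change of sign under quantile normalization and with limma on the authors' values were those of Hnrnpa3 and Srsf3 in P, Hnrnph1 and Hnrnpk in RBPMS KD1, and Hnrnpr and Srsf11 in MBNL KD, and with limma on these values alone those of Hnrnph3 in P, Srsf10 in RBPMS KD1 and Hnrnpul2 in MBNL KD. Thinned counts lost Hnrnph3 in P and Hnrnpr in MBNL KD, DESeq2 lost Hnrnpr in MBNL KD, and 1 fit of 12 libraries lost Srsf10 in MBNL KD. In the direct comparison, leaving out 1 library could lose the calls of Hnrnpa1, Srsf4 and Srsf11, thinned counts lost Srsf4 and Srsf11 (adjusted p = 0.14 and 0.13), and DESeq2 and the fit without a filter lost Srsf11 (adjusted p = 0.060 and 0.054). With the replicate number as a block, 22 members were lower in RBPMS KD1 in place of 21, the added one being Hnrnpul1 (adjusted p = 0.041), and the block changed no other call. Srsf8 and Srsf12 were not detectable or near the limit of 3 counts.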
